A study of Oryza sativa Japonica Group with 8 samples.

Results

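Rice genes described as lipid transfer proteins, as members of the anther LEM1 and pollen Ole e I families, or as GDSL lipases were followed in young panicles of plants with lowered expression of OsDCL3b. They were chosen by description: 7 keywords for these families, pollen and anther were matched to the authors' tables of changed genes, with transposons left out. The rule found 36 genes of 1174 listed, or 3.07%. They comprised 21 lipid transfer genes, 3 of the LEM1 family, 4 of the Ole e I family and 8 GDSL lipases, and no gene was found by the words pollen or anther outside these families.

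The groups were dcl3b knockdown mutant plants (3 mRNA libraries) and wild type plants (3 mRNA libraries), both of Oryza sativa subsp. Japonica, grown in a paddy field and sampled as young panicles before heading. One small RNA library was also made per genotype. The sources used here do not say how the knockdown was made, how many lines it covers or whether plants were pooled. The labels do not say that the libraries came from separate plants, so p-values measure a spread that may be technical.

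Lipid transfer proteins are small secreted proteins, held together by cysteine bridges, that carry lipids between membranes and to the cell wall. In the anther, the tapetum, the cell layer that feeds developing pollen, secretes such proteins and delivers lipids for the pollen wall. LEML1 is known in rice as RTS, a tapetum-specific gene needed for pollen formation. The Ole e I family is named after an olive pollen allergen, and GDSL lipases cut ester bonds of lipids, some of them acting on cutin or suberin.

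The knocked down gene itself, LOC_Os10g34430, had 0.39, 0.50 and 0.44 FPKM (fragments per kilobase of transcript, scaled to sequencing depth, so that levels compare between genes per length) in knockdown replicates 1, 2 and 3, against 0.97, 0.98 and 0.88 FPKM in wild type. Its libraries did not overlap. Among all 644 genes listed as higher, knockdown replicate 2 was the knockdown library nearest to wild type in 401 (62.3%), and in 368 of the 530 listed as lower (69.4%). This library stands apart, and the overall counts of genes whose libraries are apart, the median log2 ratios of means and the re-test counts are given with and without it. The total count behind each library is not given, and an exact permutation of 3 against 3 libraries cannot give a two-sided p below 0.10.

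In the authors' deposited table, 16 of the 36 genes (44.4%) were higher in the knockdown and 20 (55.6%) were lower, where all listed genes split into 54.9% higher and 45.1% lower. The families did not move as one. Of the lipid transfer genes, 7 were higher and 14 lower. Of the GDSL lipases, 6 were higher and 2 lower. The LEM1 family had 2 higher and 1 lower, and the Ole e I family 1 higher and 3 lower. In bulk panicle RNA, fewer cells of a type and less RNA per cell cannot be told apart.

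Summed over the 20 genes listed as lower, the level was 468, 1165 and 465 FPKM in knockdown replicates 1, 2 and 3, against 1953, 1473 and 1933 FPKM in wild type. Lipid transfer genes made up most of it. Summed over the 16 listed as higher, it was 777, 280.5 and 1084 FPKM in the knockdown, against 229, 367 and 100.65 FPKM in wild type. Here the groups overlapped: knockdown replicate 2 lay below wild type replicate 2. The LEM1 genes gave 359, 119 and 665 FPKM of the knockdown sums, against 104, 167 and 22.9 FPKM in wild type.

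**Figure D1:**
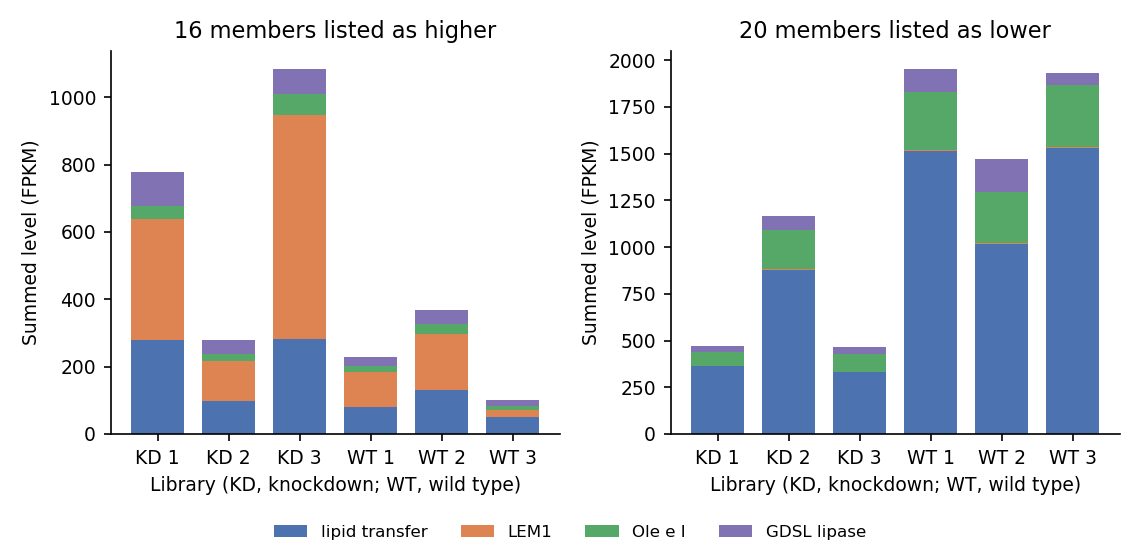
Summed FPKM of the genes listed as higher (left panel) and lower (right panel), with 1 bar per library, knockdown left of wild type, and colours for the families. In the left panel, the bar of knockdown replicate 2 (280.5 FPKM) is shorter than that of wild type replicate 2 (367 FPKM).

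Of the lower lipid transfer genes, LTPL16 (LOC_Os01g60740) had the highest level. It had 149.8, 298 and 105 FPKM in knockdown replicates 1, 2 and 3, against 481, 232 and 541 FPKM in wild type. Knockdown replicates 1 and 3 lay below every wild type library, and replicate 2 lay above wild type replicate 2. The means were 184 ± 100.8 FPKM in the knockdown and 418 ± 164 FPKM in wild type (SD, n = 3 each). In the authors' deposited table its log2 change, knockdown over wild type, was -1.18 (adjusted p = 0.00943). The log2 ratio of means was -1.71 without knockdown replicate 2.

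LTPL57 (LOC_Os11g02165) and LTPL58 (LOC_Os12g02105) gave a clearer separation. LTPL57 had 36.2, 84.15 and 27.9 FPKM in the knockdown, against 161, 195 and 150.3 FPKM in wild type. LTPL58 had 27.2, 68.7 and 22.5 FPKM in the knockdown, against 115.5, 149 and 113 FPKM in wild type. In both genes all knockdown libraries lay below all wild type libraries, with knockdown replicate 2 the highest of its genotype and wild type replicate 2 the highest of its own. In the authors' deposited table the log2 changes were -1.77 for LTPL57 (adjusted p = 5.06e-07) and -1.67 for LTPL58 (adjusted p = 7.72e-06). The short arms of chromosomes 11 and 12 carry a duplicated block in rice, and how reads shared by near-identical copies were counted is not given, so their separate levels are uncertain.

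LTPL97 (LOC_Os08g43240) had 31.9, 129.8 and 29.7 FPKM in the knockdown, against 201, 96.1 and 191 FPKM in wild type. Both replicate 2 libraries were out of line with the rest of their genotype here, and their order was inverted. Its means were 63.8 ± 57.2 FPKM in the knockdown and 163 ± 58.0 FPKM in wild type (SD, n = 3 each). The log2 change in the authors' deposited table was -1.35 (adjusted p = 0.0360), and the log2 ratio of means was -2.40 without knockdown replicate 2.

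LTPL149 (LOC_Os01g49640) and LTPL150 (LOC_Os01g49650) have consecutive locus numbers, and both were lower. LTPL150 had 40.6, 97.7 and 42.6 FPKM in the knockdown, against 165, 108 and 176 FPKM in wild type. LTPL149 had 1.28, 1.86 and 0.92 FPKM in the knockdown, against 3.67, 3.37 and 2.93 FPKM in wild type. The genotypes did not overlap in either gene, although per length LTPL150 stood far above its neighbour. The log2 changes in the authors' deposited table were -1.31 for LTPL150 (adjusted p = 0.000231) and -1.27 for LTPL149 (adjusted p = 0.00208).

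The largest fall by fold among lipid transfer genes was that of LTPL159 (LOC_Os10g36160), a low gene with 0.81, 3.07 and 0.70 FPKM in the knockdown, against 6.80, 2.57 and 8.61 FPKM in wild type. LTPL93 (LOC_Os03g45150) had 0.19, 0.57 and 0.09 FPKM in the knockdown, against 1.23, 0.51 and 1.41 FPKM in wild type. In both, knockdown replicate 2 exceeded wild type replicate 2. Their log2 changes in the authors' deposited table were -1.95 for LTPL159 (adjusted p = 0.00950) and -1.82 for LTPL93 (adjusted p = 0.0258).

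The other lower lipid transfer genes were LTPL1, LTPL3, LTPL4, LTPL18, LTPL64 and LTPL81. Their log2 changes in the authors' deposited table lay between -1.48 (LTPL1) and -1.13 (LTPL64). LTPL4 (LOC_Os09g13930) departed from the usual order of libraries, with 11.0, 16.1 and 22.9 FPKM in the knockdown, against 64.9, 20.1 and 52.1 FPKM in wild type. In this gene knockdown replicate 3, not replicate 2, was the highest knockdown library and lay above wild type replicate 2.

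**Figure D2:**
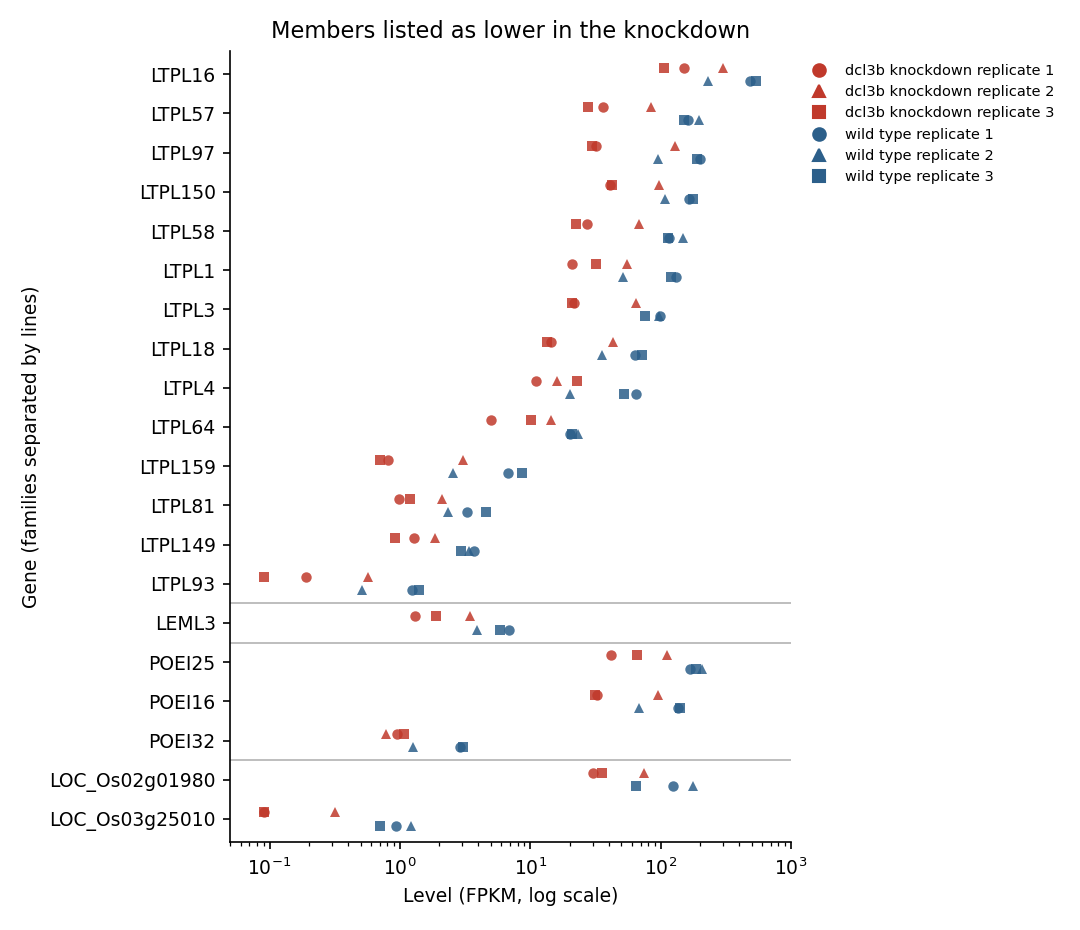
FPKM (log axis) in each library of the 20 genes listed as lower, with knockdown points drawn above wild type points in each row and replicates by symbol. Knockdown replicate 2 is the rightmost knockdown point in 18 genes, and wild type replicate 2 the leftmost wild type point in 12.

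Among the higher lipid transfer genes, 3 lie at consecutive locus numbers on chromosome 12. LTPL12 (LOC_Os12g02320) had 19.05, 5.92 and 9.97 FPKM in the knockdown, against 2.02, 3.63 and 1.97 FPKM in wild type. LTPL13 (LOC_Os12g02330) had 15.3, 5.37 and 10.35 FPKM in the knockdown, against 5.12, 6.0 and 3.32 FPKM in wild type. LTPL14 (LOC_Os12g02340) had 16.1, 4.57 and 14.6 FPKM in the knockdown, against 4.28, 4.50 and 2.36 FPKM in wild type. The genotypes were apart in LTPL12 and, by a gap from 4.57 to 4.50 FPKM, in LTPL14, and overlapped in LTPL13. In the authors' deposited table the log2 changes were 2.18 for LTPL12 (adjusted p = 1.37e-05), 1.1 for LTPL13 (adjusted p = 0.0162) and 1.66 for LTPL14 (adjusted p = 0.000443). As neighbouring genes of 1 family they may share reads, and possibly also with copies in the duplicated block named above, so their separate levels are uncertain.

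LTPL17 (LOC_Os05g40010) was the most abundant of the higher lipid transfer genes, with 153, 61.8 and 148 FPKM in the knockdown, against 49.5, 91.3 and 35.2 FPKM in wild type. LTPL103 (LOC_Os04g33930) had 42.7, 11.95 and 76.6 FPKM in the knockdown, against 10.5, 14.3 and 1.63 FPKM in wild type. LTPL106 (LOC_Os03g14630) had 34.1, 8.17 and 21.5 FPKM in the knockdown, against 8.63, 9.57 and 4.91 FPKM in wild type. In these genes knockdown replicates 1 and 3 lay above every wild type library and knockdown replicate 2 lay inside the wild type range. Their log2 changes in the authors' deposited table were 1.04 for LTPL17 (adjusted p = 0.0271), 2.31 for LTPL103 (adjusted p = 0.00589) and 1.46 for LTPL106 (adjusted p = 0.00588). LTPL143 (LOC_Os10g40480) had 0.41, 0.11 and 0.14 FPKM in the knockdown and was listed at 0 in the 3 wild type libraries, so no ratio of means can be formed. Its log2 change in the authors' deposited table was 4.91 (adjusted p = 0.0438), which rests on levels near 0. It is among the 4 higher genes counted below with a log2 change of 2 or more.

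LEML1 (LOC_Os01g70440), the tapetum-specific gene RTS, had the highest knockdown level of all 36 genes. It had 331, 112 and 611 FPKM in knockdown replicates 1, 2 and 3, against 97.3, 157 and 22.1 FPKM in wild type. Knockdown replicate 2 lay between wild type replicates 1 and 2. The means were 351 ± 250.2 FPKM in the knockdown and 92.3 ± 67.8 FPKM in wild type (SD, n = 3 each), with a log2 change of 1.93 in the authors' deposited table (adjusted p = 0.0145). LEML2 (LOC_Os02g32080) followed the same order of libraries at a lower level, with 28.0, 7.13 and 53.9 FPKM in the knockdown, against 7.03, 9.32 and 0.79 FPKM in wild type. Its log2 change in the authors' deposited table was 2.37 (adjusted p = 0.0114).

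LEML3 (LOC_Os04g32700) moved the other way from LEML1 and LEML2, with 1.30, 3.42 and 1.89 FPKM in the knockdown, against 6.90, 3.87 and 5.86 FPKM in wild type. The genotypes did not overlap in LEML3. Its log2 change in the authors' deposited table was -1.32 (adjusted p = 0.00836).

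In the Ole e I family, POEI25 (LOC_Os02g01190) had 41.4, 112 and 65.8 FPKM in the knockdown, against 167, 207 and 188 FPKM in wild type. POEI16 (LOC_Os03g14140) had 32.6, 95.2 and 31.1 FPKM in the knockdown, against 136, 68.1 and 142 FPKM in wild type. POEI32 (LOC_Os01g67390) had 0.95, 0.78 and 1.08 FPKM in the knockdown, against 2.88, 1.27 and 3.05 FPKM in wild type. The genotypes were apart in POEI25 and POEI32 and overlapped in POEI16. POEI32 and LTPL4 were the only lower genes of the 20 in which knockdown replicate 2 was not the knockdown library nearest to wild type. The log2 changes in the authors' deposited table were -1.36 for POEI25 (adjusted p = 1.05e-05), -1.12 for POEI16 (adjusted p = 0.0321) and -1.35 for POEI32 (adjusted p = 0.00131).

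POEI29 (LOC_Os02g33170) was the only Ole e I gene listed as higher, with 39.4, 22.0 and 61.8 FPKM in the knockdown, against 16.4, 29.4 and 11.6 FPKM in wild type. Its order of libraries was that of LEML1, with knockdown replicate 2 below wild type replicate 2. Its log2 change in the authors' deposited table was 1.1 (adjusted p = 0.0221).

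Of the GDSL lipases listed as higher, LOC_Os01g11620 had 33.35, 18.8 and 34.1 FPKM in the knockdown, against 12.8, 19.55 and 7.53 FPKM in wild type. LOC_Os04g55660 had 24.9, 7.38 and 20.96 FPKM in the knockdown, against 4.03, 9.05 and 2.63 FPKM in wild type. LOC_Os04g47390 had 12.8, 9.91 and 13.95 FPKM in the knockdown, against 5.83, 8.70 and 3.25 FPKM in wild type. The genotypes were apart in LOC_Os04g47390, and in the other two genes knockdown replicate 2 lay under wild type replicate 2. The log2 changes in the authors' deposited table were 1.11 for LOC_Os01g11620 (adjusted p = 0.00292), 1.76 for LOC_Os04g55660 (adjusted p = 0.00134) and 1.04 for LOC_Os04g47390 (adjusted p = 0.00469).

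LOC_Os06g50950 rested on a single library, with 24.03, 3.35 and 3.45 FPKM in the knockdown, against 4.09, 2.82 and 2.48 FPKM in wild type. Knockdown replicates 2 and 3 lay inside the wild type range. Its log2 change in the authors' deposited table was 1.72 (adjusted p = 0.0385), and in a limma re-test over all listed genes its adjusted p was 0.241. LOC_Os09g04624 had 2.24, 1.56 and 2.17 FPKM in the knockdown, against 0.99, 1.19 and 0.64 FPKM in wild type. LOC_Os01g11700, whose locus number lies 80 above that of LOC_Os01g11620, had 1.05, 0.61 and 1.06 FPKM in the knockdown, against 0.35, 0.50 and 0.28 FPKM in wild type. Both of these low genes were apart between genotypes, with log2 changes in the authors' deposited table of 1.08 for LOC_Os09g04624 (adjusted p = 2.80e-05) and 1.23 for LOC_Os01g11700 (adjusted p = 0.0205).

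The lower GDSL lipases included the gene with the largest fall of all, LOC_Os03g25010, which had 0.09, 0.32 and 0.09 FPKM in the knockdown, against 0.94, 1.21 and 0.70 FPKM in wild type. LOC_Os02g01980 had 30.2, 74.55 and 35.7 FPKM in the knockdown, against 124, 175.5 and 64.6 FPKM in wild type. The genotypes were apart in LOC_Os03g25010, while in LOC_Os02g01980 knockdown replicate 2 exceeded wild type replicate 3. The log2 changes in the authors' deposited table were -2.50 for LOC_Os03g25010 (adjusted p = 1.1e-06) and -1.37 for LOC_Os02g01980 (adjusted p = 0.00169).

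**Figure D3:**
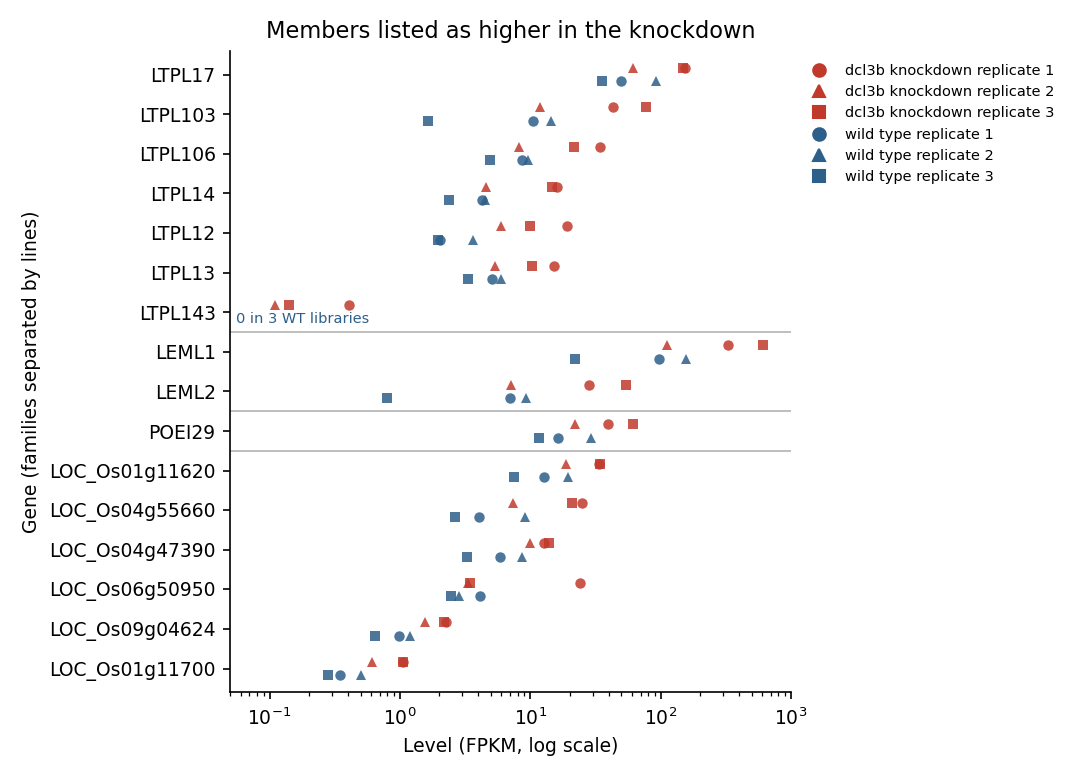
FPKM (log axis) in each library of the 16 genes listed as higher, with knockdown points drawn above wild type points in each row and replicates by symbol. Knockdown replicate 2 is the leftmost knockdown point in all 16 genes, and wild type replicate 2 is the rightmost wild type point in 14.

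The median log2 change in the authors' deposited table was 1.56 for the 16 higher genes and 2.57 for all genes listed as higher, and 1.81 for the 306 others over 1 FPKM in the higher genotype. For the 20 lower genes it was -1.35, against -1.45 for all genes listed as lower and -1.28 for the 310 others over 1 FPKM. A log2 change of 2 or more in size was reached by 4 of the 16 higher genes (61.5% of all listed as higher) and 1 of the 20 lower genes (17.0% of all listed as lower). An adjusted p of at most 0.01 in the authors' deposited table was reached by 8 of the 16 (73.6% of all listed as higher) and 15 of the 20 (61.9% of all listed as lower). The genes were abundant: the median of their knockdown and wild type means was 15.0 and 5.48 FPKM for those higher, against 0.952 and 0.108 FPKM over all listed as higher. For those lower it was 29.7 and 73.6 FPKM, against 0.703 and 1.83 FPKM over all listed as lower.

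All 3 knockdown libraries lay above all wild type libraries in 6 of the 16 higher genes (37.5%), against 84.6% of all genes listed as higher. They lay below in 11 of the 20 lower genes (55%), against 89.1% of all genes listed as lower. Among other listed genes over 1 FPKM in the higher genotype, 250 of 306 higher (81.7%) and 269 of 310 lower (86.8%) were apart. Without knockdown replicate 2 the libraries were apart in 15 of the 16 (93.8%) and 19 of the 20 (95.0%), beside 96.7% and 98.9% of all listed. The exceptions were LOC_Os06g50950 and LTPL4. Leaving out any library can only keep or raise such a count, and knockdown replicate 2 was mostly the one nearest to wild type. Without wild type replicate 2 instead, 14 of the 16 and 19 of the 20 were apart (share over all listed genes not counted). The difference between these genes and the rest of the tables was not tested.

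**Figure D4:**
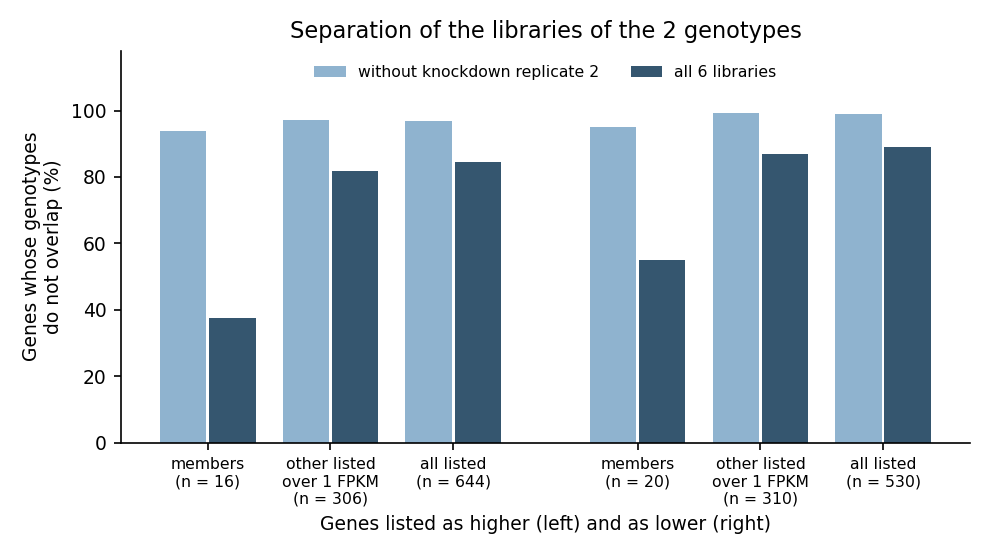
Share of genes (%) whose knockdown and wild type libraries do not overlap, for the 36 genes, for other listed genes over 1 FPKM and for all listed genes, without knockdown replicate 2 (light) and with all 6 libraries (dark). With all libraries the shares are 37.5% of the higher and 55% of the lower genes, and without knockdown replicate 2 they are 93.8% and 95.0%. Leaving out a library can only keep or raise a share.

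Knockdown replicate 2 was nearest to wild type in all 16 higher genes and in 18 of the 20 lower ones. It lay inside the wild type range in 10 of the 16 (62.5%, beside 13.2% of all listed as higher) and in 8 of the 20 (40.0%, beside 10.2% of all listed as lower). Its level over the mean of knockdown replicates 1 and 3 had a median of 0.404 in the higher genes (0.725 over all listed) and 2.34 in the lower genes (1.56 over all listed). Knockdown replicates 1 and 3 differed by a median fold of 1.52 in the higher genes, at most 6.97 (LOC_Os06g50950), and by a median of 1.21 and at most 2.11 in the lower genes. Without replicate 2 the median log2 ratio of means was 1.85, against 1.46 with it, over the 15 higher genes with a wild type level. Over the genes listed as higher that allow a ratio (511 of 644 with all libraries), it was 2.26 without and 2.09 with replicate 2. For the 20 lower genes it was -1.87 without and -1.35 with replicate 2. Over the genes listed as lower that allow a ratio (528 of 530 with all libraries), it was -1.69 without and -1.45 with replicate 2.

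The wild type libraries also differed among themselves. Wild type replicate 2 was the highest of them in 14 of the 16 higher genes (87.5%), beside 41.8% of all listed as higher and 50.7% of the others over 1 FPKM. Wild type replicate 3 was the lowest in 15 of the 16 (93.8%), beside 41.5% and 57.5%. Ties were counted for the library with the lowest number, so genes at 0 in all wild type libraries counted for replicate 1. A wild type level was present in 511 of the 644 listed as higher and in 279 of the 306 others. The comparison shares for wild type replicates 2 and 3 are lowered by this, and the contrast with the 16 genes is enlarged. Among the 20 lower genes wild type replicate 2 was the lowest wild type library in 12 (60%), near the 55.7% of all listed as lower and the 67.7% of the others over 1 FPKM. These were 9 lipid transfer genes, POEI16, POEI32 and LEML3, and 4 of these were apart between genotypes. It was the highest in LTPL57, LTPL58, LTPL64, POEI25 and both lower GDSL lipases, of which 5 of 6 were apart. Of the 10 higher genes with overlapping libraries, 9 had knockdown replicate 2 below wild type replicate 2, and of the 9 lower genes with overlap, 7 had it above. A lower gene with a low wild type library overlaps more readily, so these counts by the place of replicate 2 are partly built in. Their shares over all listed genes were not counted.

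**Figure D5:**
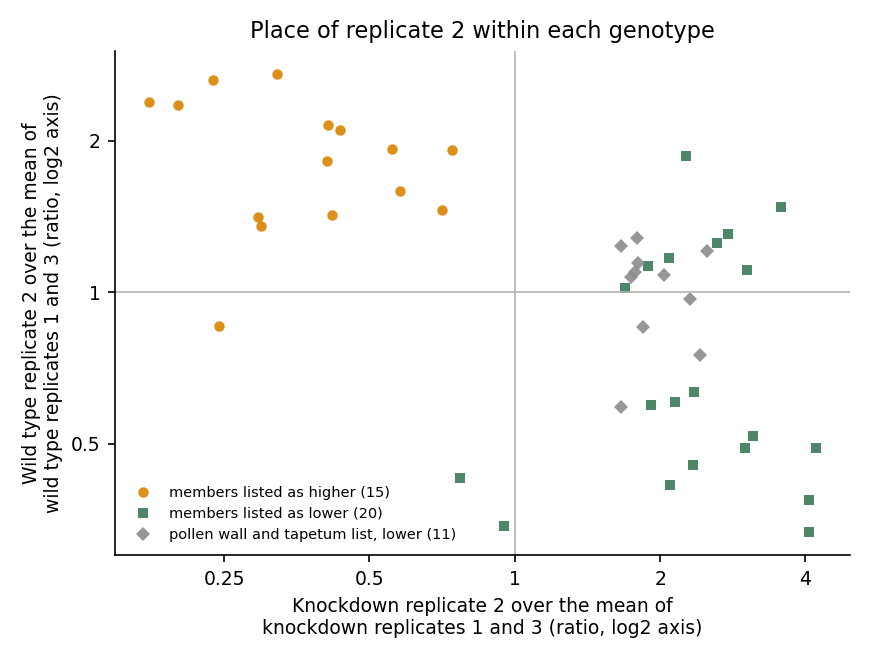
Level of replicate 2 over the mean of replicates 1 and 3, in the knockdown (horizontal) and in wild type (vertical), both on log2 axes, with 1 point per gene; LTPL143 has no wild type level and is left out. The higher genes fall at the left and mostly above 1, while most lower genes lie at the right, both below and above 1, and the pollen wall and tapetum genes lie between 0.591 and 1.28 on the vertical axis.

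Genes that mark cell types, among them the tapetum, were counted in the same libraries. Of those described as histone or cyclin, taken as a mark of dividing cells, 12 were listed as lower and 0 as higher in the authors' deposited table. Their summed level was 61.4, 92.6 and 49.75 FPKM in the knockdown, against 165, 82.4 and 216 FPKM in wild type, so that knockdown replicate 2 lay above wild type replicate 2. The single listed gene of the green tissue keywords was higher, with 49.4, 29.5 and 69.7 FPKM in the knockdown, against 25.15, 23.0 and 11.4 FPKM in wild type. Of 7 tapetum regulators, 3 were listed, all as lower, with a summed level of 8.10, 16.6 and 9.38 FPKM in the knockdown, against 30.2, 22.8 and 32.2 FPKM in wild type. The part of these differences in the results above was not tested.

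A list of 22 rice loci of the tapetum and the pollen wall gives the pathway around these genes. It had 11 genes listed as lower, 1 as higher (LEML1) and 10 in neither table, among them OsC6, a tapetal lipid transfer protein. All 11 lower genes were apart between genotypes, beside 89.1% of all listed as lower. Genes that are apart necessarily stay so without knockdown replicate 2, where 98.9% of all listed as lower were apart. Knockdown replicate 2 was the knockdown library nearest to wild type in all 11, beside 69.4% of all listed as lower. In the 11 genes it stood at 1.66 to 2.51 times the mean of replicates 1 and 3. It lay in the wild type range in none of them (10.2% of all listed as lower), which follows from their being apart. The largest falls in the authors' deposited table were log2 changes of -1.97 for AP37, a protease of tapetal cell death, -1.72 for the regulator PTC1, -1.58 for CYP703A3, a fatty acid hydroxylase, and -1.46 for OsPKS2, a polyketide synthase of sporopollenin. Whether these genes differ from the lower lipid transfer genes in their order of libraries was not tested.

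The FPKM values were also re-tested with limma over all 1174 listed genes, which had already been selected on the same values. Of the 16 higher genes 8 passed an adjusted p of 0.05 (80.0% of all listed as higher), and of the 20 lower genes 17 passed (90.9% of all listed as lower). The lower genes that missed it were LTPL16, LTPL97 and POEI16, with adjusted p from limma of 0.0579, 0.0566 and 0.0668. Knockdown replicate 2 lay above wild type replicate 2 in these 3, and also in LTPL1, LTPL18, LTPL159 and LTPL93, which passed. The higher genes that missed it included LEML1 (adjusted p = 0.0835 from limma), LEML2 (0.0772), POEI29 (0.0803), LTPL17 (0.0902) and LOC_Os06g50950. The count for the higher genes depended on single libraries: it was 15 without knockdown replicate 2, and 2, 1, 2 and 2 without knockdown replicates 1 and 3 and wild type replicates 1 and 3. For the lower genes it was 18 without knockdown replicate 2 and 5, 4, 5 and 6 without the same 4 libraries. Without wild type replicate 2 it was 8 for the higher and 16 for the lower genes, beside 69.9% and 85.3% of all listed. Without knockdown replicate 2, 87.6% of all listed as higher and 87.5% of all listed as lower passed. Without 1 of knockdown replicates 1 and 3 and wild type replicates 1 and 3, 51.2% to 56.1% of all listed as higher passed. Of all listed as lower, 55.5% to 62.1% did.

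None of the 36 genes was named by a small RNA window that the authors listed as changed, among 11 windows of 21-nt and 113 windows of 24-nt siRNA of 500 bases each. The windows named few listed genes at all: 1 of the 1174 for 21-nt and 7 for 24-nt siRNA, so 0 of 36 is near the share over all listed genes. The small RNA comparison had 1 library per genotype and no test.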

How the data were processed

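Messenger RNA of young panicles was read in 3 dcl3b knockdown and 3 wild type libraries from a stranded kit, per the labels' protocols. TopHat2 2.1.0, Bowtie 1.1.2 and edgeR are named in the submitters' processing notes without their roles. Not given in the sources used here: genome build, annotation, library totals and the counting of multiply mapped reads. The authors deposited tables of genes called changed, with FPKM per library to 2 decimals, a p-value, its adjusted form and the log2 fold (knockdown over wild type), per the file headers. The base of the deposited log2 fold change was checked: over 369 genes above 1 FPKM in both genotypes it differed from the log2 ratio of mean FPKM by at most 0.0326. Small RNA windows of 500 bases were deposited with a signal in RPTM per library, and only the genes they name were used.

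Unlisted genes were not analysed here. The 36 genes and the marker and pathway lists were chosen with earlier results of these data known, and the pathway loci were written from general knowledge. Values in every library were due, per family and direction, for the 4 genes with the highest mean FPKM and the 2 with the largest fold. LTPL4, LTPL13, LTPL58, LOC_Os01g11700 and others beyond that rule were named after their values were seen. Means and SDs are of FPKM. The re-test was run in limma 3.58.1 (R 4.3.3) after adding 0.5 to FPKM and taking log2, with no filter. Its p-values were adjusted over the 1174 listed genes by Benjamini-Hochberg. Fold changes on that scale understate low genes. The re-test was also run on simulated data, with independent noise in each library and changes in only part of the genes. That setting does not cover genes already selected as changed, or a library that departs over many genes. Alternatives were pseudocounts of 0.1 and 1, the lowest 25% of genes left out, a replicate block, each library left out and stricter thresholds. The reference gene table held 0 of the listed locus IDs, so names come from the files and the pathway list.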

Additional observations from a re-analysis of the deposited data

How the results depend on the processing

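Of 395 single-gene values from the alternatives, none reversed (0): 265 kept their side of the threshold, 101 lost the call and 29 gained it. The re-test called 8 higher and 17 lower genes. It called 5 higher genes with a pseudocount of 1 (73.8% of all listed as higher). Leaving out 1 library gave 1 to 15 higher and 4 to 18 lower genes. Without both replicate 2 libraries, chosen after seeing the data, 14 higher and 20 lower genes passed (80.6% and 87.9% of all listed). An adjusted p of 0.01 in limma left 0 higher genes (8 at an unadjusted p under 0.05) and 2 lower. The share of all listed genes at this threshold was not counted, so these counts cannot be set against the rest. Libraries were apart in 6 to 15 higher and 11 to 19 lower genes with 1 library left out, and in 15 and 20 without both replicate 2 libraries. Of all listed as higher and lower, 84.6% and 89.1% were apart with all libraries, and 96.7% and 98.9% without knockdown replicate 2. Without both replicate 2 libraries these shares were not counted, but they cannot lie below 96.7% and 98.9%. In the authors' deposited table, an absolute log2 fold change of 2 left 4 higher genes and 1 lower, and an adjusted p of 0.01 left 8 higher.

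With the replicate block, 1 higher and 9 lower genes passed, beside 50.2% of all listed as higher and 57.9% of all listed as lower. No pairing by number was seen in the listed genes: same-numbered deviations correlated between -0.53 and -0.0435, and 0 of 3 knockdown libraries correlated best with their own number. Whether libraries were sampled or prepared in pairs cannot be told from these correlations. Library totals are not given, so the precision of genes under 1 FPKM, such as LTPL93, LTPL143 and LOC_Os03g25010, could not be set.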

Other observations

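Other listed genes of lipid metabolism, found by the words acyl and WAX2 after their values were seen, comprised 2 higher and 5 lower genes. The 2 higher genes, LOC_Os02g37780 and LOC_Os02g37770, are described as lecithin cholesterol acyltransferases and have consecutive locus numbers, so their separate levels are uncertain. LOC_Os02g37770 had 35.5, 18.15 and 38.2 FPKM in the knockdown, against 7.21, 8.40 and 3.74 FPKM in wild type, and its libraries did not overlap. LOC_Os02g37780 had 16.2, 10.3 and 20.1 FPKM in the knockdown, against 2.85, 3.6 and 2.12 FPKM in wild type, again without overlap. Of all genes listed as higher, 84.6% were apart. Of the 5 lower genes 4 were apart, beside 89.1% of all listed as lower. The exception was LOC_Os02g56920, described as WAX2, a name known from wax synthesis in Arabidopsis, with 2.83, 6.05 and 2.44 FPKM in the knockdown, against 8.82, 4.38 and 11.3 FPKM in wild type. Without knockdown replicate 2 its libraries did not overlap. Knockdown replicate 2 was the knockdown library nearest to wild type in all 7 genes, beside 62.3% of all listed as higher and 69.4% of all listed as lower.

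LOC_Os11g02389, whose description names the protease inhibitor, seed storage and LTP family and which the keywords missed, had 12.4, 3.61 and 9.51 FPKM in the knockdown, against 3.12, 4.22 and 2.34 FPKM in wild type. Its knockdown replicate 2 lay inside the wild type range, as in 10 of the 16 higher genes above.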
